A study of Homo sapiens with 48 samples.

Results

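The dual-specificity MAPK phosphatases and the Sproutys are the transcripts by which growth factor and stress signalling switches itself off. The genes described here were 10 members of these 2 families, chosen as every probe whose gene symbol in the deposited intensity table was DUSP1, DUSP2, DUSP4, DUSP5, DUSP6, DUSP10, DUSP16, SPRY1, SPRY2 or SPRY4. All 10 passed the filter on low signal, out of 16438 genes that passed among 31426 symbols on the array. They were read by 20 probes, of which 16 passed. The phosphatases remove phosphate from both the threonine and the tyrosine that activate a MAP kinase, and differ in the kinase they prefer and in where in the cell they act. The Sproutys act upstream, at the membrane, and hold back the relay from receptor tyrosine kinases through RAS to ERK. Most of these genes are themselves induced by MAP kinase signalling, so that their transcripts are widely read as a trace of pathway activity, and low Sprouty levels have been described in prostate cancer.

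Total RNA was hybridized to 48 Illumina bead arrays. PC-3, a prostate cancer line from a bone metastasis, and 22Rv1, a line derived from a subline of the CWR22R xenograft, were each kept for 24 h at 5, 2, 1, 0.5, 0.2 or 0% O2, and each level had normoxia controls of its own. This gave 24 groups of 2 arrays, that is 12 hypoxia and 12 normoxia arrays in each line, with no other treatment. The labels do not say whether the 2 arrays of a group came from separate cultures, and a p-value here speaks only of the scatter among the arrays, some or all of which may be technical. The cells grew in RPMI-1640 with fetal bovine serum, and the control gas was 95% air. Each line stands for itself only.

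Between 13750 and 16494 probes per array were detected (detection p below 0.01). The deposited tables disagreed on 2 arrays, the hypoxia and the normoxia array of 22Rv1 at 0.2% O2, replicate 2, whose labels were exchanged between them. The labels of the intensity table are used here, and values with the exchanged labels are given beside the members' calls that they end. All 7 genes of a list of hypoxia-induced genes were higher in hypoxic PC-3 cells and 6 of 7 in hypoxic 22Rv1 cells, CA9 being undetected in 22Rv1. With the labels used here, the median log2 change of these 7 genes in 22Rv1 was 3.26 at 0.2% O2. It was 3.23 at 0.5% and 3.88 at 0%, the levels on either side. Which table holds the right labels was not tested. Of the marker genes, KLK2 was detected on all 24 arrays of 22Rv1 and 0 of 24 of PC-3, and AXL on all 24 arrays of PC-3 and 0 of 24 of 22Rv1. HOXB13, TMPRSS2, VIM and CD44 were detected on every array of both lines, so that detection alone does not separate the lines by them. Their normoxia levels did differ, 22Rv1 minus PC-3, by -4.38 log2 for VIM, -3.83 for CD44 and 1.06 for TMPRSS2. For HOXB13 the difference was -0.19 (limma, adjusted p = 0.12). Of 4 measured mesenchymal and basal genes, 3 rose in hypoxic 22Rv1 cells (VIM by 0.45, CD44 by 0.48, and CAV1, detected there on 0 of 12 control and 5 of 12 hypoxia arrays) and 2 in PC-3 (VIM 0.27, CAV1 0.22), and their part in the members' changes was not tested. KLK3, a defining product of androgen-responsive prostate cells, passed the detection filter in neither line. The RNA came from whole cultures, so that more cells with a transcript and more transcript per cell cannot be told apart.

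Values are normalized log2 intensities. A change is the difference of log2 means, hypoxia minus its own controls, ± the standard error of limma's moderated fit, and a gene is called when its limma p, adjusted by Benjamini-Hochberg over all 16438 genes, is below 0.05. Values of a member's further probes come from a fit of every kept probe on its own, adjusted over 21132 probes. Averaged over the 6 oxygen levels, 4 of the 10 members were called in PC-3 (DUSP1, DUSP5, DUSP6 and DUSP10) and 6 in 22Rv1 (the same 4 with DUSP16 and SPRY1), all of them higher in hypoxia. Of all genes, 24% were called in PC-3 and 42.6% in 22Rv1. The median change of the members was 0.24 in PC-3 and 0.49 in 22Rv1, beside -0.013 and -0.011 over all genes. The sizes depend on the background correction. Of 75 called values of members and pathway genes, all but DUSP5 in 22Rv1 at 1% O2, 37 moved by over 1.5 times without it and 72 were still called. With the other table's values 40 moved by over 1.5 times and 66 were still called. With each hypoxia array paired with the control array of the same number, 7 members were called in PC-3, SPRY1, SPRY2 and SPRY4 being added. In 22Rv1 the paired fit called 6. The share of all genes called rose as well, to 32.2% in PC-3 and 49.9% in 22Rv1.

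By single level, calls among members were few in PC-3 and came at lower oxygen. At 5% O2 none of the 10 members was called in either line, where 0.00608% of all genes were called in PC-3 and 0.0913% in 22Rv1, although 1 member in each line had an unadjusted p below 0.05 at that level. For PC-3, 2% O2 gave 0 of 10 (1 by unadjusted p), beside 0.292% of all genes. The level of 1% gave 1 beside 1.4%, and 0.5% gave 1 beside 4.08%. The level of 0.2% gave 2 beside 4.73%, and 0% gave 1 beside 8.86%. For 22Rv1, 2% O2 gave 1 of 10 beside 4.14% of all genes, 1% gave 4 beside 14.5%, and 0.5% gave 5 beside 28.1%. The level of 0.2% gave 1 beside 11%, and 0% gave 5 beside 29.2%. These made 5 of 60 member-by-level pairs in PC-3, all higher, and 16 of 60 in 22Rv1, of which 15 were higher and 1 lower. With the paired fit the counts were 10 in PC-3 and 23 in 22Rv1. With the labels of the other table the 22Rv1 count was 13. The shares of all genes above belong to the unpaired fit with the labels used here. Those of the other settings are not given by level, so these counts have no background beside them.

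**Figure D1:**
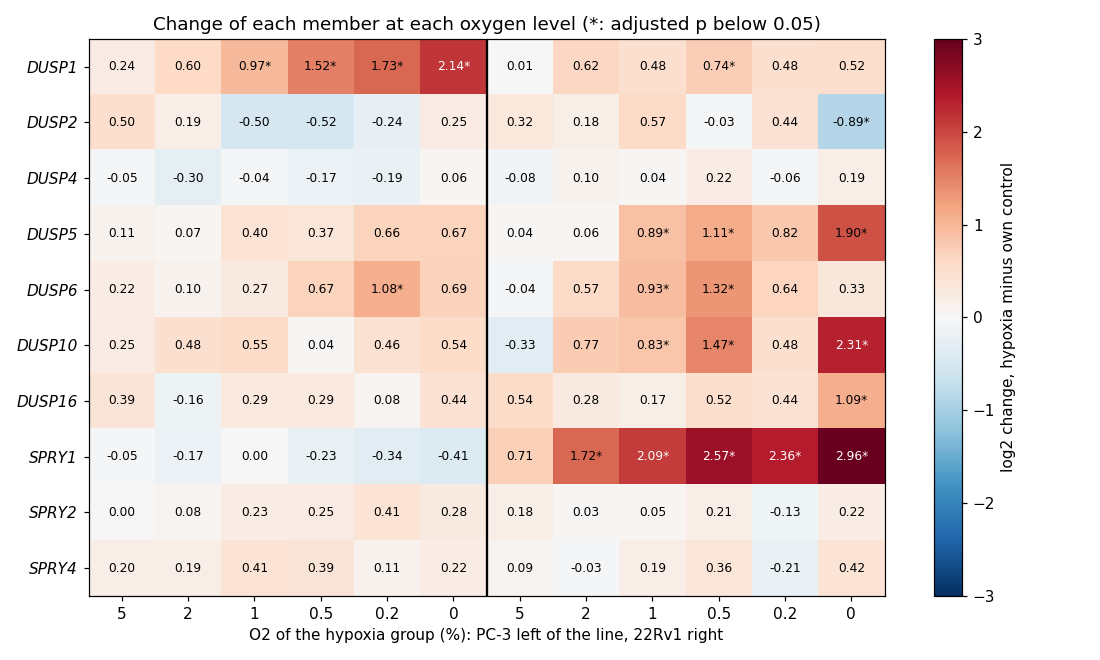
Log2 change of each member (rows) at each oxygen level (columns, in % O2), PC-3 on the left and 22Rv1 on the right of the line; each cell is the mean of 2 hypoxia arrays minus the mean of their 2 own controls, and a star marks an adjusted p below 0.05. SPRY1 in 22Rv1 reached 2.96 and DUSP1 in PC-3 reached 2.14 at 0% O2, while DUSP4, SPRY2 and SPRY4 carry no star in either line; the DUSP4 values of 22Rv1 lie below detection in both groups.

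SPRY1, a membrane-bound inhibitor of receptor tyrosine kinase signalling, rose in 22Rv1 cells, while its mean in PC-3 cells was slightly lower in hypoxia. In 22Rv1 the 2 hypoxia arrays read 7.07 and 6.95 at 5% O2, against controls at 6.32 and 6.28. At 2% they read 8.24 and 7.99 against 6.27 and 6.52, and at 1% they read 8.62 and 8.48 against 6.57 and 6.34. At this oxygen range hypoxic arrays already stood well clear of their controls. At 0.5% they read 9.49 and 8.75 against 6.63 and 6.47, at 0.2% 8.97 and 8.60 against 6.04 and 6.80, and at 0% 9.29 and 9.42 against 6.38 and 6.41. No hypoxia array of 22Rv1, the lowest being 6.95, overlapped the 12 controls, the highest being 6.80.

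The change of SPRY1 in 22Rv1 was 0.71 ± 0.22 at 5% O2 (limma, adjusted p = 0.57), then 1.72, 2.09, 2.57, 2.36 and 2.96 at 2, 1, 0.5, 0.2 and 0%, with adjusted p from 1.8e-06 to 1.5e-12. Averaged over levels it was 2.07 ± 0.09, a 4.2-fold rise (limma, adjusted p = 3.1e-19), seen in 12 of 12 same-numbered pairs. The change grew by 0.39 ± 0.05 per step down in oxygen (limma, adjusted p = 2.2e-06). With the labels of the other table the mean change was 1.77 (adjusted p = 3.7e-08), but the change at 0.2% O2 was 0.57 (adjusted p = 1), that at 2% was no longer called (1.72, adjusted p = 0.08) and neither was the trend (0.24, adjusted p = 0.23). Leaving out the whole 0.2% level, the mean change was 2.01. The other table's own values gave 1.26 (adjusted p = 4.6e-08) for the mean, and 0.37 at 0.2%, 1.16 at 2% and 0.20 for the trend, these 3 not called.

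In PC-3, SPRY1 stood in normoxia above every array of 22Rv1. The 12 normoxia arrays of PC-3 ran from 9.61 to 10.37 with a median of 10.00, and the 12 hypoxia arrays from 9.20 to 10.08 with a median of 9.77. The groups overlapped over most of their range. The mean change was -0.20 ± 0.09 (limma, adjusted p = 0.10), lower in 11 of 12 pairs, and the paired fit called it (adjusted p = 0.023). Without the first hypoxia array at 0.2% O2 it was -0.24 (adjusted p = 0.045). The normoxia mean of SPRY1 was 6.42 ± 0.20 (SD, n = 12) in 22Rv1 and 9.96 ± 0.21 in PC-3, an 11.6-fold difference (limma, adjusted p = 1.6e-27).

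A second SPRY1 probe had a mean change of 1.94 ± 0.10 in 22Rv1 (limma, adjusted p = 4.4e-17) and -0.15 ± 0.10 in PC-3 (adjusted p = 0.34). The third probe was detected on 0 of 48 arrays. The difference in mean change between the lines, 22Rv1 minus PC-3, was 2.27 ± 0.12 for SPRY1 (limma, adjusted p = 3.6e-15) and 1.97 with the labels of the other table (adjusted p = 5.8e-06), or 1.44 with its values (adjusted p = 6e-06). This contrast called 3 of the 10 members, SPRY1, DUSP10 and DUSP1, and 22.7% of all genes.

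The RefSeq promoter table (GRCh38.p14) gives 2 starts for SPRY1. The windows below hold the 250 bases before and the 50 bases from each start, and are shown because SPRY1 had the largest line difference among the members. Capitals mark every match, on either strand, to the core bound by hypoxia-inducible factors in its 2 forms, ACGTG and GCGTG, to the cyclic AMP response element TGACGTCA, and to the AP-1 site TGANTCA. SPRY1 first start, chr4:123396545-123396844, plus strand:
SPRY1 first start: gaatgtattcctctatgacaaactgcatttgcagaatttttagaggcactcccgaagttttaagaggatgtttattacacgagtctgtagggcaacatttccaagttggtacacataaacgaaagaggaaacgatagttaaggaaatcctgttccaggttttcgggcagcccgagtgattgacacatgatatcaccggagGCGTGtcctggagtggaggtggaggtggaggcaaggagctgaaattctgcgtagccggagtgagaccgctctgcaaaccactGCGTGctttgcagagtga
SPRY1 second start, chr4:123398136-123398435, plus strand:
SPRY1 second start: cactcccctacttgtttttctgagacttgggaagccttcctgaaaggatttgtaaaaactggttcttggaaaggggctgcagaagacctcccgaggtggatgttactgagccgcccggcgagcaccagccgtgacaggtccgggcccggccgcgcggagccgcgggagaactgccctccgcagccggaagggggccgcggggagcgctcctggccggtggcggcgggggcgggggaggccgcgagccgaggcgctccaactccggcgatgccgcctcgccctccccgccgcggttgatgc
The first window holds GCGTG at 2 places, beginning at -50 and 33 from the start, and the second holds none of the 4 motifs. Over all 35116 promoters of the table, 48.4% hold either form of the hypoxia core, 1.85% the cyclic AMP response element and 7.71% the AP-1 site.

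**Figure D2:**
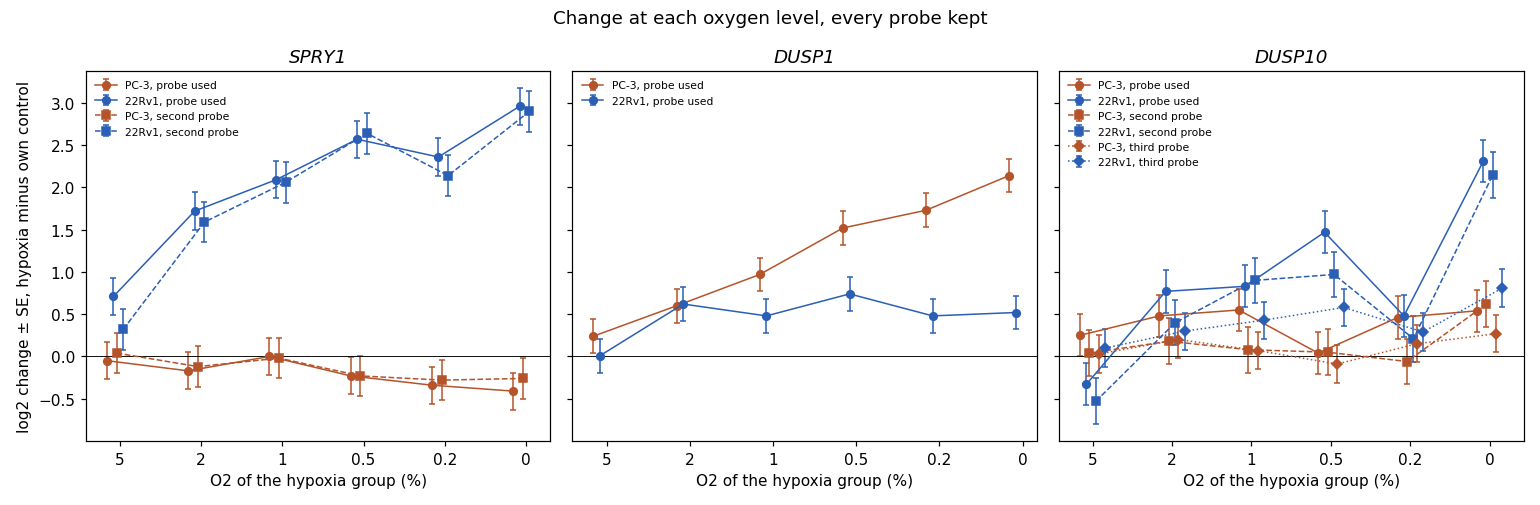
Log2 change ± SE (hypoxia minus own control, 2 arrays each) of SPRY1, DUSP1 and DUSP10 against the oxygen level in %, for each probe that passed the filter and for both lines. Both SPRY1 probes climb in 22Rv1 to 2.96 and 2.90 at 0% O2 and stay near 0 in PC-3, DUSP1 climbs in PC-3 to 2.14, and the 2 brighter DUSP10 probes peak at 0% in 22Rv1 (2.31 and 2.15).

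DUSP1, a nuclear phosphatase of JNK, p38 and ERK and a classical immediate early gene, rose by steps in PC-3, where it was low, and by less in 22Rv1, where it was high. In PC-3 the hypoxia arrays read 7.18 and 7.21 at 5% O2, 7.23 and 7.94 at 2%, and 7.87 and 8.32 at 1%. They read 8.60 and 8.63 at 0.5%, 8.50 and 9.14 at 0.2%, and 8.99 and 9.14 at 0%. The 12 controls ran from 6.79 to 7.35 with a median of 7.03. From 1% O2 down, all hypoxia arrays lay above the highest control of any level.

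The change of DUSP1 in PC-3 was 0.24, 0.60, 0.97, 1.52, 1.73 and 2.14 from 5% to 0% O2, each ± 0.20. The last 4 were called (limma, adjusted p from 0.0074 to 9.4e-09), and that at 0% was a 4.42-fold rise. The paired fit also called 2% (adjusted p = 0.015). The call at 1% was lost without the first control array (0.74, adjusted p = 0.24), without the second hypoxia array (0.75, adjusted p = 0.19), with median centring (0.89, adjusted p = 0.32) and with the other table's values (0.70, adjusted p = 0.074). Averaged over levels the change was 1.20 ± 0.08, a 2.3-fold rise (limma, adjusted p = 6.9e-13) seen in 12 of 12 pairs.

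DUSP1 was the 1 member with a called trend over oxygen in PC-3, at 0.38 ± 0.05 per step (limma, adjusted p = 2.1e-05), where 1.65% of all genes were called. The paired fit added DUSP6 (0.16, adjusted p = 0.039). A test of 0% O2 against the mean of 0.2, 0.5 and 1% called none of the members in PC-3 and 0% of all genes by limma, although DUSP1 (0.74) and DUSP2 (0.67) were the 2 members with an unadjusted p below 0.05, as were 482 genes in all.

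In 22Rv1 the 12 controls of DUSP1 ran from 10.33 to 10.82 with a median of 10.58, and the 12 hypoxia arrays from 10.50 to 11.78 with a median of 11.05. The 2 hypoxia arrays at 5% O2 lay within the range of the controls and the others above it. The mean change was 0.48 ± 0.08, a 1.39-fold rise (limma, adjusted p = 1.6e-05) in 11 of 12 pairs. By level it was called at 0.5% O2 alone (0.74, limma, adjusted p = 0.0055), which was lost without the first hypoxia array of that level (0.48, adjusted p = 0.21) or with median centring (0.68, adjusted p = 0.099). The paired fit also called 2, 1, 0.2 and 0% (0.62, 0.48, 0.48 and 0.52). The mean change of DUSP1 was smaller in 22Rv1 than in PC-3 by 0.73 ± 0.12 (difference -0.73, limma, adjusted p = 2.1e-05), or by less with no background correction (-0.43) and with the other table's values (-0.47), both still called. Its normoxia level was 10.59 ± 0.16 (SD, n = 12) in 22Rv1 and 7.03 ± 0.18 in PC-3, 11.8-fold apart (limma, adjusted p = 2.4e-28).

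The promoter window of DUSP1 (chr5:172771146-172771445, minus strand, GRCh38.p14) is shown because the change of DUSP1 in PC-3 grew at each step down in oxygen, with the same motifs in capitals.
DUSP1: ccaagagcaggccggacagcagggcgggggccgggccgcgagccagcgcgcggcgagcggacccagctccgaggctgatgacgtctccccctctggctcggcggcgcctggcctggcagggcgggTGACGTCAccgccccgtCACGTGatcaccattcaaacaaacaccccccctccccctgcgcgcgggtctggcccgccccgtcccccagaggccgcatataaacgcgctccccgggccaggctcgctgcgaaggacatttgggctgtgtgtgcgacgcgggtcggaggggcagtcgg
It holds the cyclic AMP response element TGACGTCA, beginning at -125, and the palindrome CACGTG, beginning at -108, which reads as ACGTG on both strands. CACGTG itself is found in 7.26% of all promoters of the table.

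**Figure D3:**
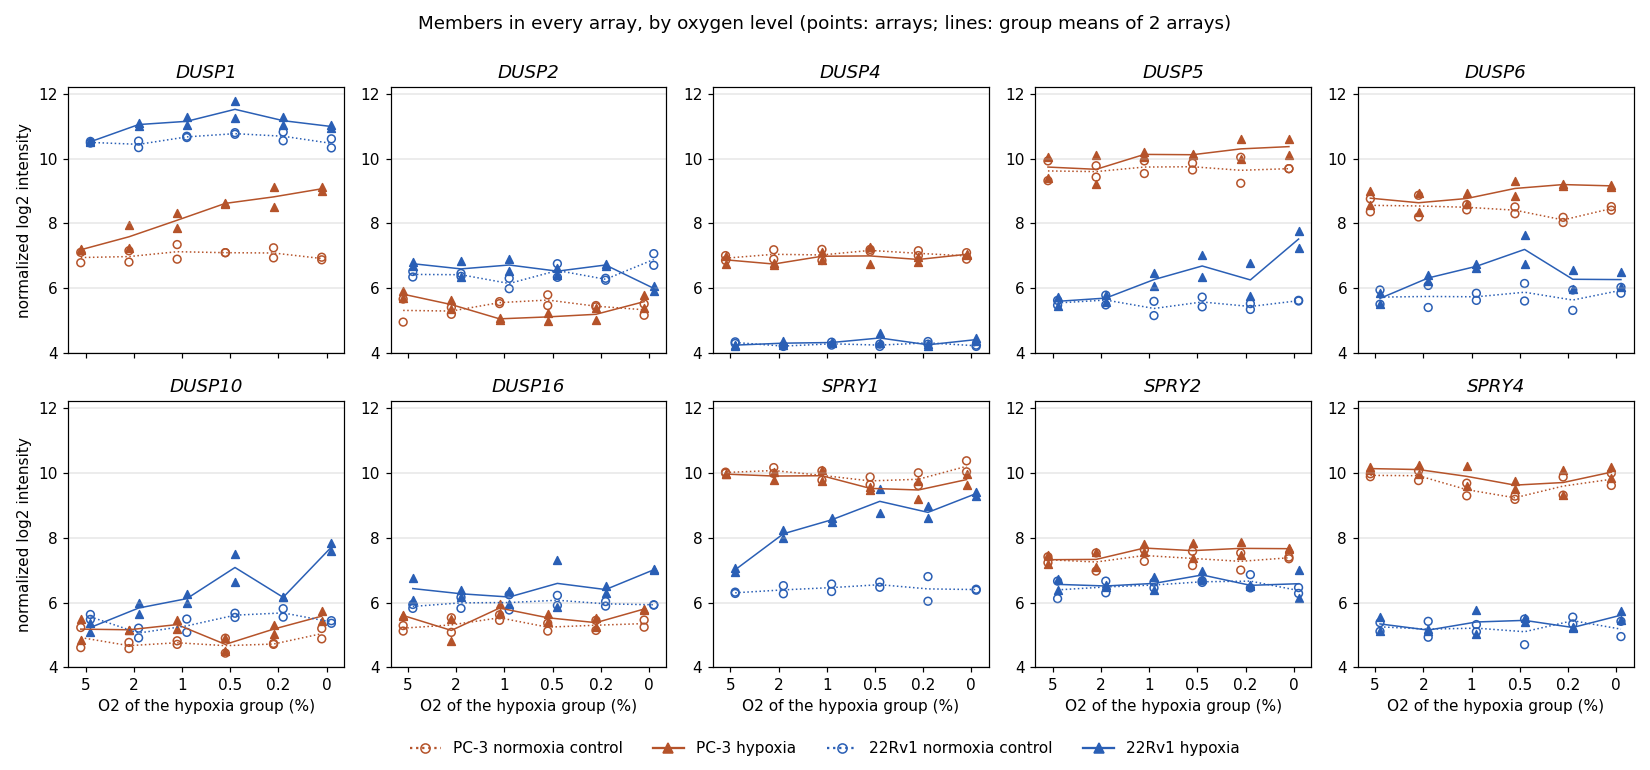
Normalized log2 intensity of every array for each member against the oxygen level in %, with hypoxia arrays as filled triangles and their own normoxia controls as open circles, PC-3 in brown and 22Rv1 in blue; lines join the means of 2 arrays. SPRY1 of 22Rv1 climbs from controls near 6.42 toward the PC-3 level, DUSP1 of PC-3 climbs away from controls near 7.03, and DUSP4 of 22Rv1 lies at the floor on every array.

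The phosphatases DUSP10 and DUSP16, which act mainly on JNK and p38, both rose in 22Rv1, most at 0% O2. The hypoxia arrays of DUSP10 in 22Rv1 read 5.37 and 5.08 at 5% O2, 6.0 and 5.66 at 2%, and 5.99 and 6.25 at 1%. They read 7.51 and 6.64 at 0.5%, 6.17 and 6.16 at 0.2%, and 7.83 and 7.58 at 0%. The controls ran from 4.91 to 5.81 and were detected on 11 of 12 arrays. From 1% down each hypoxia array lay above every control, and the arrays at 0.2% stood lower than those on either side.

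The change of DUSP10 in 22Rv1 was 2.31 ± 0.25 at 0% O2 (4.96-fold, limma, adjusted p = 5.7e-09), 1.47 at 0.5% (adjusted p = 2.5e-05) and 0.83 at 1% (adjusted p = 0.019), and was not called at 5, 2 or 0.2% (-0.33, 0.77 and 0.48). The call at 1% was lost without the second hypoxia array (0.70, adjusted p = 0.17) or the second control array (0.63, adjusted p = 0.21), with median centring (0.77, adjusted p = 0.058) and with the other table's values (0.35, adjusted p = 0.056). The change at 0% exceeded the mean of 0.2, 0.5 and 1% by 1.38 ± 0.28 (limma, adjusted p = 0.00076). A second probe gave 2.15 ± 0.27 at that level. The third, detected on 5 of 48 arrays, was detected at 0% O2 on 0 of 2 control and 1 of 2 hypoxia arrays. Its measured change there was 0.81 ± 0.22 (limma, adjusted p = 0.0046), resting mostly on values below detection. Set against the lowest signal that was well detected, its hypoxia level was at least 1.18-fold higher. The fourth probe was detected on 0 arrays. With no background correction the change of the brightest probe at 0% was 1.26, that at 0.5% 0.76 and the mean 0.45, and the other table's values gave 1.29, 0.79 and 0.43, all called.

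Averaged over levels DUSP10 rose by 0.92 ± 0.10 in 22Rv1 (limma, adjusted p = 3.7e-09, 10 of 12 pairs). In PC-3 it was detected on 2 of 12 control and 8 of 12 hypoxia arrays, so the mean change of 0.39 ± 0.10 (limma, adjusted p = 0.0039, 10 of 12 pairs) rests on signals near the detection limit, and it was 0.13 with no background correction and 0.14 with the other table's values. The second probe gave 0.15 ± 0.11 there (adjusted p = 0.38). The line difference of 0.53 ± 0.14 (limma, adjusted p = 0.0057) was no longer called when 0% O2 was left out (0.29, adjusted p = 0.22), and was 0.43 (adjusted p = 0.046) with the labels of the other table, which turned the change at 0.2% O2 into -0.12 (adjusted p = 1). The control groups of DUSP10 in 22Rv1 spanned 0.62, from 5.06 at 2% to 5.68 at 0.2% O2, and against all 12 controls pooled the change at 0.2% was 0.73 (adjusted p = 0.0038).

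The window of the first DUSP10 start (chr1:221742040-221742339, minus strand, GRCh38.p14) is given beside the others because DUSP10 had the largest difference between 0% O2 and the 3 levels above it.
DUSP10 first start: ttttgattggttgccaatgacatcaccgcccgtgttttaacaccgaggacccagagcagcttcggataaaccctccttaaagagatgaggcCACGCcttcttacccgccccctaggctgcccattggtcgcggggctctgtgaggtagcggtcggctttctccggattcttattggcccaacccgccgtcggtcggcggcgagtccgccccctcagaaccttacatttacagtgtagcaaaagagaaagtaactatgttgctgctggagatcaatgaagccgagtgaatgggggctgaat
It holds 1 match to GCGTG, read on the other strand as CACGC and beginning at -159. The window of the second start holds none of the 4 motifs.

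DUSP16 read 7.01 and 7.02 at 0% O2 in 22Rv1 against controls at 5.92 and 5.93, a change of 1.09 ± 0.29 (2.12-fold, limma, adjusted p = 0.0039). At 0.5% its hypoxia arrays read 7.32 and 5.86, so that leaving out the second turned a change of 0.52 into 1.25 (adjusted p = 6e-04) and leaving out the first turned it into -0.21 (adjusted p = 0.73). The mean change was 0.51 ± 0.12 in 22Rv1 (limma, adjusted p = 0.00064, 10 of 12 pairs) and 0.22 ± 0.12 in PC-3 (adjusted p = 0.19, 10 of 12 pairs). With no background correction the change at 0% was 0.58 and the mean in 22Rv1 0.26, and with the other table's values 0.60 and 0.23, all called. The difference between the lines was 0.28 ± 0.17 (adjusted p = 0.24), and 0.40 (adjusted p = 0.023) without that second array.

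DUSP5 and DUSP6, the phosphatases specific to ERK in the nucleus and in the cytoplasm, rose in both lines on the mean over levels. DUSP5 in 22Rv1 read 7.78 and 7.25 at 0% O2 against controls at 5.63 and 5.61, a change of 1.9 ± 0.31 (3.72-fold, limma, adjusted p = 1.3e-05). At 0.5% it read 7.02 and 6.36 against 5.73 and 5.43, a change of 1.11 (adjusted p = 0.0065). At 5 and 2% the arrays overlapped their controls, with changes of 0.04 and 0.06. The mean change was 0.80 ± 0.13 in 22Rv1 (limma, adjusted p = 3.4e-06, 10 of 12 pairs), and the trend was 0.34 ± 0.07 per step (adjusted p = 0.0018), lost with the other table's values (0.17, adjusted p = 0.079). With no background correction the change at 0% was 1.04 and the mean 0.39, and with the other table's values 1.07 and 0.38, all called.

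The call of DUSP5 at 0.5% in 22Rv1 was lost without the first hypoxia array (0.79, adjusted p = 0.19), without the second control array (0.96, adjusted p = 0.074), with array weights, with no background correction (0.53, adjusted p = 0.097) and with the other table's values (0.56, adjusted p = 0.10). At 1% the change of 0.89 (adjusted p = 0.0496) was at the threshold, and was lost without any 1 of the 4 arrays of that level (0.70, 0.68, 1.09 and 1.11, with adjusted p from 0.063 to 0.35) and with the labels of the other table (adjusted p = 0.086), median centring (0.81), no background correction (0.38), the other table's values (0.39) and 4 further settings. At 0.2% O2 the hypoxia arrays read 6.78 and 5.75, and the change of 0.82 was called in the paired fit (adjusted p = 0.0038) and without the second hypoxia array (1.33, adjusted p = 0.0063).

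In PC-3, where the 12 controls of DUSP5 ran from 9.24 to 10.04 and the 12 hypoxia arrays from 9.22 to 10.62, the mean change was 0.38 ± 0.13 (limma, adjusted p = 0.026, 11 of 12 pairs). The call was lost without the first control array at 5, 2, 1 or 0.2% O2 (0.33, 0.35, 0.35 and 0.31) and without the second hypoxia array at 5, 2, 0.2 or 0% (0.33, 0.31, 0.33 and 0.34), with adjusted p from 0.057 to 0.084. It was also lost with median centring (0.35, adjusted p = 0.058) and without the 0% or the 0.2% level (both 0.32). By level no change of DUSP5 was called in PC-3, and the paired fit called 0.2 and 0% (0.66 and 0.67). The line difference, 0.42 ± 0.18, was not called (limma, adjusted p = 0.09) and was called in the paired fit (adjusted p = 0.005). It was also called without the first PC-3 control at 0.2% O2 (0.49), the second PC-3 hypoxia array at 2% (0.50), or the second 22Rv1 hypoxia array at 0.5% (0.48) or 0.2% (0.51).

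In PC-3 DUSP6 rose by 0.51 ± 0.12 (limma, adjusted p = 0.0012, 12 of 12 pairs), and it rose by 0.63 ± 0.12 in 22Rv1 (adjusted p = 3.8e-05, 11 of 12 pairs), with a line difference of 0.12 ± 0.16 (adjusted p = 0.67). The 22Rv1 mean was 0.31 with no background correction, 0.32 with the other table's values and 0.39 with the mean of probes, all called, and the change at 0.5% O2 there was 0.73, 0.75 and 0.84. Unlike SPRY1 and DUSP10, it did not stand highest at 0% O2 in 22Rv1. There it read 7.66 and 6.74 at 0.5% O2, 6.58 and 5.97 at 0.2%, and 6.03 and 6.51 at 0%, against controls from 5.32 to 6.15. The change was 1.32 ± 0.28 at 0.5% (limma, adjusted p = 0.00058), 0.93 at 1% (adjusted p = 0.023) and 0.33 at 0% (adjusted p = 0.44), and the difference of 0% from the 3 levels above it was -0.63 ± 0.33 (adjusted p = 0.24).

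The DUSP6 call at 0.5% in 22Rv1 was lost without the first hypoxia array (0.86, adjusted p = 0.082), and that at 1% without any 1 of its 4 arrays (0.83 to 1.04), with median centring (0.82), with no background correction (0.45) or with the other table's values (0.47, adjusted p = 0.11). In PC-3 it was called at 0.2% alone, at 9.23 and 9.16 against 8.03 and 8.19, a change of 1.08 ± 0.28 (limma, adjusted p = 0.019). That call too was lost without any 1 of the 4 arrays (1.01 to 1.16) or with median centring (1.06, adjusted p = 0.085), and the paired fit added 0.5 and 0% (0.67 and 0.69) in PC-3 and 0.2% in 22Rv1 (0.64). The last was also called without the second hypoxia array (0.94, adjusted p = 0.047). A second DUSP6 probe gave 0.51 ± 0.11 in PC-3 (adjusted p = 0.00055) and was detected on 0 of 24 22Rv1 arrays.

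At 0.5% O2 in 22Rv1, DUSP1, DUSP5, DUSP6, DUSP10, DUSP16 and SPRY1 all read higher on the first hypoxia array than on the second. Without the first, DUSP10 (1.04, adjusted p = 0.01) and SPRY1 (2.20, adjusted p = 8.6e-08) were still called at that level, and DUSP1, DUSP5 and DUSP6 were not. The mean changes over 6 levels in 22Rv1 without that array were 0.43 for DUSP1, 0.75 for DUSP5, 0.55 for DUSP6, 0.85 for DUSP10, 0.38 for DUSP16 and 2.01 for SPRY1, all called.

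DUSP2, a nuclear phosphatase best known from activated immune cells, was the 1 member with a called fall in the unpaired fit. In 22Rv1 at 0% O2 it read 6.07 and 5.92 against controls at 6.71 and 7.07, a change of -0.89 ± 0.22 (limma, adjusted p = 0.0019). At the 3 levels above, the change was 0.57, -0.03 and 0.44, and the difference of 0% from them was -1.22 ± 0.25 (limma, adjusted p = 0.00078). That contrast called 2 of 10 members, DUSP10 and DUSP2 in opposite directions, and 13.2% of all genes. The paired fit added DUSP5 (0.95, adjusted p = 0.003) and SPRY1 (0.62, adjusted p = 0.02). Without the first 22Rv1 hypoxia array at 0.5% O2, DUSP5 (1.06), SPRY1 (0.74) and DUSP16 (0.96) were called as well. DUSP5 was also called without the first hypoxia array at 0.2% (1.13), and SPRY1 without the first control array at 0.2% (0.75).

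The 2 controls of DUSP2 at 0% O2 were the highest control group of that line, with control means from 6.15 to 6.89. Against all 12 controls pooled the change at 0% was -0.46 (adjusted p = 0.039), and the difference from the other low levels was -0.66 (adjusted p = 0.0075). With no background correction these were -0.47 and -0.64 and with the other table's values -0.49 and -0.58, all called. The mean change over levels was 0.10 ± 0.09 in 22Rv1 (adjusted p = 0.41), or 0.30 (adjusted p = 0.015) when 0% was left out, and -0.05 ± 0.09 in PC-3 (adjusted p = 0.76). Leaving out 0% also made the line difference of DUSP2 a call (0.15 against 0.41, adjusted p = 0.034).

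The trend over oxygen in 22Rv1 called 4 members, DUSP5, DUSP10 and SPRY1 rising and DUSP2 falling (-0.17 ± 0.05 per step, limma, adjusted p = 0.028), and 13.2% of all genes. The DUSP2 trend was lost with median centring (-0.13), with no detection filter (-0.17) and without any of 5 single arrays. These were the first hypoxia and the second control array at 5% O2 (both -0.16), the second hypoxia array at 2% (-0.15), and the second hypoxia (-0.16) and second control array at 0% (-0.14).

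The DUSP2 window (chr2:96145391-96145690, minus strand, GRCh38.p14) is given as that of the member that moved the other way at 0% O2.
DUSP2: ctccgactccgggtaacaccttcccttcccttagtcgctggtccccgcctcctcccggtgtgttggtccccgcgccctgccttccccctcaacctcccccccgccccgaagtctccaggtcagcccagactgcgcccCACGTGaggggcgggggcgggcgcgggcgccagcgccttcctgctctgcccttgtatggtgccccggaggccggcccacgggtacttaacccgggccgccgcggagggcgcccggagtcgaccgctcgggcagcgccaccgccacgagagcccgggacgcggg
It too holds the palindrome CACGTG, beginning at -113. Of the 12 windows searched for 8 members, 5 hold either form of the hypoxia core, a share no higher than the 48.4% of all promoters. These are the windows of DUSP1, DUSP2, DUSP6, the first start of DUSP10 and the first start of SPRY1. Taken singly, ACGTG is found in 21.4% of all promoters and GCGTG in 36.5%. No window of DUSP4 or DUSP5 was searched. The windows of DUSP16, SPRY2 and SPRY4 hold none of the 4 motifs.

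DUSP4, a nuclear phosphatase of ERK and JNK, SPRY2 and SPRY4 were called at no level in either line. DUSP4 was detected on all 24 PC-3 arrays, with controls from 6.86 to 7.20 and hypoxia arrays from 6.73 to 7.26, and on 0 of 24 22Rv1 arrays. Its mean change in PC-3 was -0.12 ± 0.07 (limma, adjusted p = 0.24), higher in 4 of 12 pairs. No change is given for 22Rv1, where both groups were below detection.

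SPRY2 ran from 6.97 to 7.63 in PC-3 controls and from 7.10 to 7.88 in PC-3 hypoxia, with a mean change of 0.21 ± 0.10 (limma, adjusted p = 0.16) and 11 of 12 pairs higher. SPRY4 ran from 9.18 to 10.06 in PC-3 controls and from 9.33 to 10.24 in hypoxia, with a mean change of 0.25 ± 0.11 (limma, adjusted p = 0.095) and 12 of 12 pairs higher. In both the groups overlapped across nearly their whole range, while most same-numbered pairs differed in the same direction. The paired fit called both, at adjusted p = 0.012 for SPRY2 and 0.0056 for SPRY4. SPRY4 was also called without the second PC-3 hypoxia array at 1% (0.30, adjusted p = 0.045) or at 0.2% O2 (0.31, adjusted p = 0.033). In 22Rv1 the changes were 0.09 ± 0.10 and 0.14 ± 0.11, neither called, and SPRY4 was detected on 19 of 24 arrays. A second SPRY4 probe gave 0.06 ± 0.09 in PC-3 (adjusted p = 0.77), so the 2 probes did not give the same size.

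In normoxia all 10 members differed between the lines, where 71.8% of all genes did. DUSP1, DUSP2, DUSP10 and DUSP16 were higher in 22Rv1, by 3.56, 1.02, 0.63 and 0.65 (limma, adjusted p from 8.7e-06 to 2.4e-28), although the arrays of DUSP10 overlapped and only 2 of its 12 PC-3 controls were above detection. DUSP4, DUSP5, DUSP6, SPRY1, SPRY2 and SPRY4 were higher in PC-3, with differences, 22Rv1 minus PC-3, of -4.14 for DUSP5, -2.65 for DUSP6, -3.54 for SPRY1, -0.82 for SPRY2 and -4.43 for SPRY4 (limma, adjusted p from 1.1e-08 to 1.1e-27). DUSP4 was at least 3.75-fold lower in 22Rv1 (limma, adjusted p = 6.1e-28), a bound set against the lowest signal that was well detected, the measured means being 4.27 and 7.04. With no background correction the differences were 0.45 for DUSP2, 0.21 for DUSP10, 0.25 for DUSP16, -1.66 for DUSP6, -0.50 for SPRY2 and -2.94 for SPRY4, all called, and SPRY4 stood at -2.34 with the mean of probes.

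**Figure D4:**
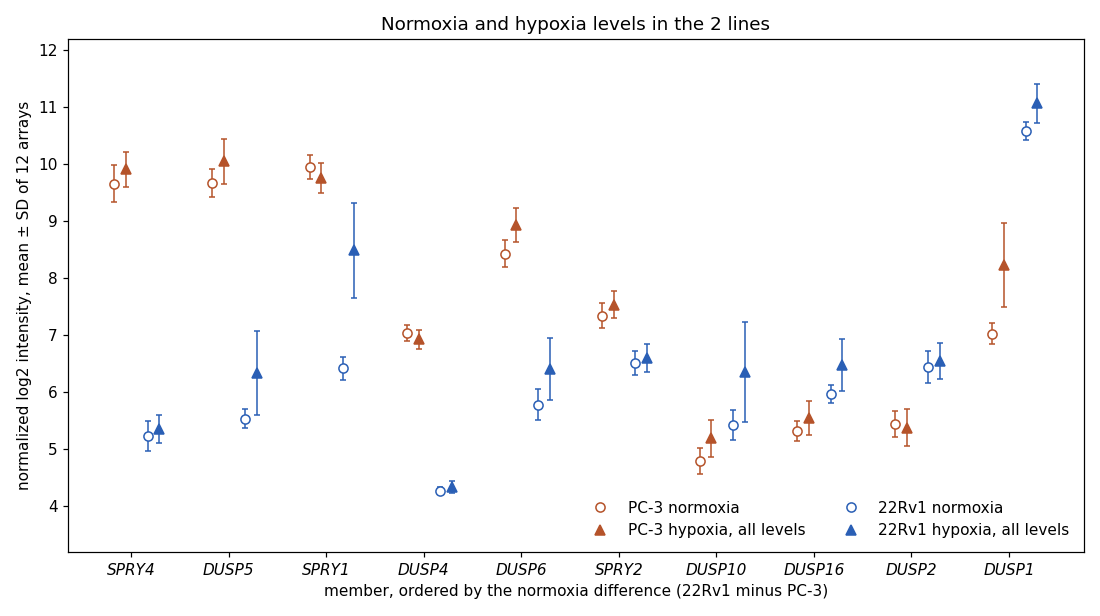
Normalized log2 intensity (mean ± SD of 12 arrays) of each member in normoxia (open circles) and in hypoxia over all levels (filled triangles), PC-3 in brown and 22Rv1 in blue, ordered by the normoxia difference between the lines. SPRY4, DUSP5 and SPRY1 are far higher in PC-3 and DUSP1 far higher in 22Rv1; hypoxia moved SPRY1 of 22Rv1 from 6.42 to 8.49 and DUSP1 of PC-3 from 7.03 to 8.23.

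The controls of the 6 levels were compared by an F-test within each line. None of the members was called, and 0% of all genes in PC-3 and 0% in 22Rv1 were, by limma after adjustment, although 283 and 557 genes had an unadjusted p below 0.05. Among members the span of the 6 control means was widest for DUSP2 in 22Rv1, at 0.74 (unadjusted p = 0.037), and for SPRY4 in PC-3, at 0.70 (unadjusted p = 0.089). For SPRY1 in 22Rv1 it was 0.25 and for DUSP1 in PC-3 it was 0.20, both small beside their changes.

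The other genes of the pathway were counted on the same fits, where 24% of all genes were called in PC-3 and 42.6% in 22Rv1. With the paired fit these shares were 32.2% and 49.9%. Of the typical MAPK phosphatases outside the 10 members, 2 of 3 were measured, and DUSP8, a phosphatase of JNK and p38, rose in 22Rv1 (0.83 ± 0.12, limma, adjusted p = 1.1e-06) with a change of 0.12 ± 0.12 in PC-3. Of 13 measured atypical dual-specificity phosphatases, 2 rose and 2 fell in PC-3 and 4 rose and 2 fell in 22Rv1, with medians of 0.02 and 0. DUSP3, which acts on ERK and JNK, rose in both lines (0.38 and 0.60), DUSP18 in 22Rv1 (0.37), and DUSP12 fell in both (-0.30 and -0.25). Of 2 measured Sprouty and Spred kin, SPRED2, an inhibitor of RAF activation, rose in PC-3 (0.30 ± 0.08, limma, adjusted p = 0.0041), with a change of 0.09 in 22Rv1. That rise was lost without 0% O2 (0.21, adjusted p = 0.085) or with median centring (0.26, adjusted p = 0.14).

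Transcripts known to follow ERK activity were counted next. Of 9 measured ERK output genes, 1 rose in PC-3 and 4 in 22Rv1, none fell, and the medians were 0.10 and 0.27. The paired fit gave 3 and 5, with IER3 (0.17) and PHLDA1 (0.20) added in PC-3. The named ones in 22Rv1 were IER3, a stress-induced survival gene (0.69), the ephrin receptor EPHA4 (0.65), and PHLDA1 (0.38), which was detected on 2 of 12 control and 9 of 12 hypoxia arrays there and was lost without 0% O2 (0.22, adjusted p = 0.053). For IER3 and EPHA4 the difference between the lines was itself called (0.52 and 0.55, limma, adjusted p = 1e-04 and 0.0025).

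Of 9 measured immediate early genes, 3 rose in PC-3 and 6 in 22Rv1, none fell, and the medians were 0.16 and 0.62. FOS, a subunit of AP-1, was detected on 0 of 24 PC-3 arrays. In 22Rv1 it was detected on 6 of 12 control and 12 of 12 hypoxia arrays, with a change of 2.29 ± 0.15 (limma, adjusted p = 2.1e-14), or 1.30 with no background correction and 1.25 with the other table's values. JUN, its partner, rose in both lines (0.90 ± 0.12 in PC-3, 1.19 ± 0.12 in 22Rv1), and the stress factor ATF3 by 0.98 in 22Rv1, a call lost without 0% O2 (0.35, adjusted p = 0.11). JUNB and JUND rose in both lines (0.39 and 0.62, 0.44 and 0.66).

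Upstream, 3 of 14 measured receptors and adaptors rose in PC-3 and 4 in 22Rv1, none fell, and the medians were 0.12 and 0.16, so that the called shares were no higher than those of all genes. The paired fit gave 4 and 6, with EGFR added in PC-3 (0.31, adjusted p = 0.0071). EGFR rose by 1.03 ± 0.12 and ERBB2 by 0.57 ± 0.09 in 22Rv1 (limma, adjusted p = 1.9e-08 and 3e-06), with line differences of 0.71 and 0.52 (adjusted p = 0.0024 and 0.0022). The EGFR change in 22Rv1 was 0.6 with the mean of its probes and 0.65 with the other table's values, both called. CBL, a ligase that marks receptors for degradation, rose in PC-3 (0.32, adjusted p = 0.025), a call lost with median centring (0.28, adjusted p = 0.17), without the 0% or 0.2% level, without the first control array of any level, and without the second hypoxia array of any level but 0.5% (0.26 to 0.30).

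Within the kinase relay itself, of 13 measured genes from RAS to ERK, 1 rose and 1 fell in PC-3 and 3 rose and 1 fell in 22Rv1, with medians of 0.04 and 0.02. MAP2K1, the kinase that activates ERK, rose in both (0.60 ± 0.05 and 0.55 ± 0.05, line difference -0.05 ± 0.07). HRAS fell in 22Rv1 (-0.37). Of 16 measured JNK and p38 kinases, 1 rose and 2 fell in PC-3 and 2 rose and none fell in 22Rv1, with medians of 0.06 and 0.03, shares below those of all genes. The paired fit gave 3 that rose and 3 that fell in PC-3 and 2 of each in 22Rv1. In that fit the PC-3 share lay above the 32.2% of all genes, and the 22Rv1 share below the 49.9%. MAP3K1 rose in 22Rv1 (0.75 ± 0.10), while MAP2K6 (-0.31) and MAP3K5 (-0.29) fell in PC-3, the former lost without 0% O2 (-0.23, adjusted p = 0.084) or with the mean of its probes (-0.15).

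The 3 members with the most called levels were compared with every tested gene by the Pearson correlation of their 12 changes (6 levels in each of 2 lines), as a description in which each pair of arrays is shared by all genes. Among the changes most like those of SPRY1 were those of RAB31 (0.989) and CYP1A1 (0.989), whose mean changes in 22Rv1 were 2.80 and 2.24 and in PC-3 -0.34 and -0.05. Most like DUSP1 were SCNN1G (0.969), TUBGCP2 (0.961) and MIR614 (0.961), of which SCNN1G was detected on 19 and MIR614 on 22 of 48 arrays. Most like DUSP10 were CDRT4 (0.976), RTN4 (0.952) and SERPINE2 (0.95). Their mean changes were 0.63, 0.11 and 0.78 in 22Rv1 and 0.26, -0.03 and 0.4 in PC-3. A correlation speaks of the shape of the changes and not of their size, which was small for RTN4. Among the members themselves DUSP5 and DUSP10 stood closest (0.85), and the lowest correlations were those of DUSP2 with SPRY4 (-0.67) and with SPRY2 (-0.62). DUSP1 and SPRY1 stood at -0.51. That value pools the changes of both lines, and in 22Rv1 both genes rose on the mean over levels (0.48 and 2.07).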

How the data were processed

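Total RNA of 48 samples was measured on Illumina bead arrays. The submitters' processing notes name BeadStudio 3.1.3.0. One deposited table holds for each probe its bead intensity on every array and a detection p-value, and a second deposited table of intensities on a linear scale, normalized by the authors by a method not given in the sources used here, served as an alternative. The replicate letters A and B of the bead intensity table were read as replicates 1 and 2. Of 48 arrays, 46 carried the same label in both tables, and no 2 columns were identical. Depth does not apply to arrays: their number limits the precision.

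Intensities were background-corrected and quantile-normalized with limma 3.58.1 (neqc, offset 16) in R 4.3.3. Probes with a detection p below 0.01 on at least 2 arrays were kept, and the probe with the highest mean stood for its symbol. For the further probes of the members, a separate fit held all 21132 kept probes with a symbol. One mean was fitted per group over all 24 groups (24 residual degrees of freedom), with moderated variances (trend) and Benjamini-Hochberg adjustment over 16438 genes, and the fit was tested on simulated data. Same-numbered hypoxia and control arrays deviated together (correlations between 0.326 and 0.471 in PC-3, between 0.18 and 0.447 in 22Rv1), so a fit blocked by pair was run as well. The mean correlation was 0.397 in PC-3 and 0.286 in 22Rv1. With same-numbered controls of the other levels it was 0.316 and 0.156, so part of the shared deviation was not particular to the pair. Other settings were background correction, normalization, filters, probe rule, array weights, pooled controls, labels, left-out levels and left-out arrays. Promoter windows and names come from RefSeq (GRCh38.p14), and motifs were searched on both strands. The members, lists and tests were chosen with earlier results of these data known. Named pathway genes were, per list, the 3 with the largest mean change in either line among those called; JUNB and JUND were added after their values were seen. Named like genes were the 3 highest correlations for the 3 members with the most called levels. Some genes that these rules name are not reported here.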

Additional observations from a re-analysis of the deposited data

Results flagged for a closer look

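The following 5 results differed between lines or oxygen levels by a test of the difference itself. The mean change of SPRY1 was larger in 22Rv1 than in PC-3 by 2.27 (limma, adjusted p = 3.6e-15), and that of DUSP10 by 0.53 (adjusted p = 0.0057). For DUSP1 the same difference was -0.73 (adjusted p = 2.1e-05), the larger change being in PC-3. In 22Rv1 the change at 0% O2 differed from the mean change at 0.2, 0.5 and 1% by 1.38 for DUSP10 (limma, adjusted p = 0.00076) and by -1.22 for DUSP2 (adjusted p = 0.00078). No sample was tested as lying apart from its group, since each group held 2 arrays.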

How the results depend on the processing

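No called value changed sign in any setting tried. The numbers of members called on the mean in 22Rv1 (6), on the line difference (3) and in normoxia (10) stayed within 1.5 times in every setting that leaves all arrays in. The replicate block by pair raised the count on the mean in PC-3 from 4 to 7, member-by-level calls in PC-3 from 5 to 10, the PC-3 trend from 1 to 2, and 0% against 0.2 to 1% O2 in 22Rv1 from 2 to 4, and it lost none of the members' calls and added 19. These 19 are given beside their results, except that of DUSP2 in 22Rv1 at 1% O2 (0.57, adjusted p = 0.038); it changed no other call of a member. A replicate block over the line, chosen after seeing the data, gave 7 and 4 for the first and last of these. Member-by-level calls in PC-3 numbered 3 with median centring and 12 with pooled controls, which also gave 2 for the PC-3 trend and 5 for 0% against 0.2 to 1% in 22Rv1. The other table's values gave 2 for the 22Rv1 trend in place of 4. On the mean, the block by pair also raised the share of all genes called. It went from 24% to 32.2% in PC-3 and from 42.6% to 49.9% in 22Rv1. For the other counts by setting no share of all genes is given, so a change in them is no result about the members. With 1 array left out, the counts ran from 3 to 5 (PC-3 mean), 6 to 6 (22Rv1 mean), 4 to 5 and 13 to 19 (levels, PC-3 and 22Rv1), 1 to 1 and 3 to 4 (trends), 0 to 0 and 2 to 5 (0% against 0.2 to 1%), 3 to 5 (line difference) and 10 to 10 (normoxia); the lone array of its group was then assumed to vary like the others. With median centring the median change of all genes was 0.21 at 5% and -0.29 at 0.5% O2 in PC-3 and -0.20 at 5% in 22Rv1. In the main fit these medians were 0, -0.028 and -0.01. The slide as a block was not run, since no column gives it, and the block by pair gives no normoxia contrast. Signals near the detection limit bound what can be said of DUSP4 in 22Rv1 and of DUSP10 in PC-3.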
